A study of Rattus norvegicus with 24 samples.

Results

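A set of 61 gene IDs in rat INS1 cells stood at nearly the same level with and without doxycycline at 4 h and was higher once either of 2 kinase modulators, PAIR1 or KIRA9, had been added. INS1 cells descend from a rat insulinoma and stand in for pancreatic beta cells, and those studied here carry a doxycycline-inducible transgene for mouse IRE1α (Ern1). Uninduced cells had vehicle without doxycycline, induced cells had doxycycline plus vehicle, and the remaining groups had doxycycline with PAIR1 or with KIRA9. Each treatment was sampled at 4 h and at 24 h with 3 libraries, 24 libraries in 8 groups. Every group carries the transgene, and the compounds were tried only in induced cells, so an effect of a compound through the induced kinase and one without it cannot be told apart. The compound doses, the promoter behind the inducible system and whether the line is 1 clone are not given in the labels.

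IRE1α is a sensor of unfolded protein in the endoplasmic reticulum that joins a kinase domain to an RNase domain. The active RNase starts the splicing of Xbp1 mRNA, which yields a transcription factor for chaperone and secretory genes, and it also cleaves other mRNAs bound for the endoplasmic reticulum. Ligands of the ATP site of the kinase domain act on the RNase from a distance: KIRA compounds are known as attenuators of its activity, and the series title presents the PAIR compounds as partial antagonists. Beta cells make and secrete large amounts of proinsulin, and sustained IRE1α activity is known to harm them.

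The deposited table pairs no ID with a gene name, and 0 of its 26689 IDs matched the RefSeq gene table at hand. The function of the members, pathway lists, beta cell markers and the level of the transgene were therefore not read, and no sequence could be assigned to a member. Only 4 IDs are printed, 2 for rises and 2 for falls. The other members are called by number, from 1 for the largest KIRA9 ratio at 4 h to 61 for the smallest.

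The members were chosen by their levels at 4 h in CPM, the usual unit of counts scaled to the total of each library. The KIRA9 mean had to reach 10 CPM and 1.4 times the larger of the uninduced and induced means, and the PAIR1 mean had to lie at least 15% above that value. The ratio of induced to uninduced means had to lie between 0.83 and 1.2, and all 3 KIRA9 libraries had to lie above all 6 vehicle libraries. Of the 26689 IDs, 9388 reached 10 CPM with KIRA9, 9239 of these kept the induction limits, 98 passed the KIRA9 ratio, and 73 of those passed the PAIR1 ratio, all of them with separate KIRA9 libraries. From the 73, 11 were dropped because induction had lowered them to at most 0.5 of the uninduced level at 24 h, and 2 were left out by their ID, 1 of them on both grounds, which left 61. The comparisons among the 4 h groups, and induction at 24 h, are therefore given as descriptions without a test. The contrasts of the compounds at 24 h were tested.

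The limits cut through a continuum of values. The 3 members just inside the KIRA9 limit had ratios of 1.406, 1.407 and 1.407, and the nearest IDs outside it stood at 1.397, 1.396 and 1.394. For the PAIR1 limit the nearest values were 1.151, 1.154 and 1.156 inside and 1.144, 1.144 and 1.135 outside. For the level they were 10.2, 10.2 and 11.3 CPM inside and 9.86, 9.34 and 8.60 CPM outside. The induction ratio at 4 h ran from 0.875 to 1.12 among the members, so its limits were not approached, and 1 ID that passed all other steps was excluded by them, at 1.52. At 24 h the members nearest to the dropping limit had induced to uninduced ratios of 0.515, 0.545 and 0.554, and the nearest dropped IDs 0.498, 0.485 and 0.482.

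Library totals ran from 12586513 to 23796295 counts. An ID without a count could hold up to 3, which is 0.126 to 0.238 CPM. All 61 members passed the filter on low counts that left 13760 IDs for testing. For the 6 induced vehicle libraries the time characteristic contradicts the title and the column name, and the title was used. With the other assignment the rule chose 17 IDs, of which 14 were among the 61, so the set rests on the titles. A group of 6 libraries (at 24 h PAIR1 replicate 1, induced replicates 1 and 2 and uninduced replicate 2, and at 4 h uninduced replicate 2 and induced replicate 3) stood apart from the other 18 in 37 IDs, which took 0.666 to 0.744% of their counts against 0.0704 to 0.0852%. None of the 61 members was among these 37 IDs, and the rule applied without the 2 of these libraries sampled at 4 h chose 56 IDs, 53 of them among the 61.

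At 4 h the groups formed a staircase. The ratio of the KIRA9 mean to the larger vehicle mean had a median of 1.66 over the members and reached 4.62, with 42 members at 1.5 or more, 15 at 2 or more and 3 at 3 or more. The PAIR1 ratio had a median of 1.27 and reached 1.95. The induced to uninduced ratio had a median of 0.986. The PAIR1 rise was 16.9 to 72.7% of the KIRA9 rise in the same member, with a median of 43.2%, and it was at least 50% in 14 of the 61.

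The rule asked for separate libraries with KIRA9 alone, a pattern that 8.52% of all tested IDs showed and all 61 members had to show. The PAIR1 libraries also lay above all 6 vehicle libraries in 53 of the 61 members, a pattern found in 4.75% of all tested IDs, and overlapped them in 8 (members 8, 27, 31, 46, 52, 53, 54 and 61). All 3 KIRA9 libraries lay above all 3 PAIR1 libraries in 59 members, against 9.72% of all tested IDs, the exceptions being members 54 and 61, and in no member did PAIR1 lie above KIRA9 (8.96% of all tested IDs). The rule used these libraries, so nothing is read from these shares. The larger vehicle mean ran from 3.95 to 3061 CPM, not corrected for transcript length. It was under 20 CPM in 26 members, from 20 to under 100 CPM in 22, from 100 to under 1000 CPM in 9 and above that in 4.

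**Figure D1:**
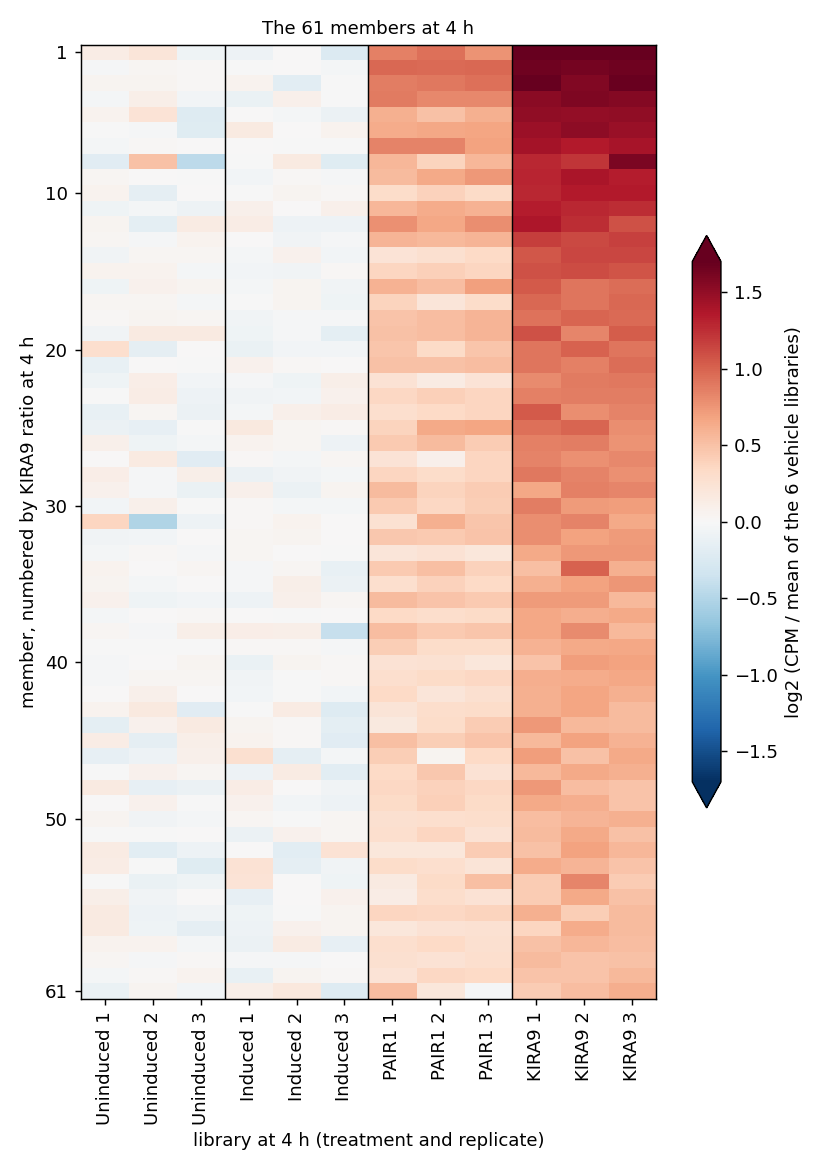
Each row is 1 of the 61 members, ordered by the KIRA9 ratio, and each column 1 of the 12 libraries at 4 h. Colour gives log2 of the CPM over the mean of the 6 vehicle libraries, and all 3 KIRA9 columns are redder than the vehicle columns in every row, as the rule requires. PAIR1 overlaps the vehicle columns in 8 rows and KIRA9 in 2.

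The members together took 1.30 to 1.32% of the counts in uninduced and 1.29 to 1.29% in induced libraries at 4 h. Their share was 1.91 to 1.94% with PAIR1 and 2.73 to 2.77% with KIRA9. A large piece came from a single ID, ENSRNOG00000018294. Without it the shares were 1.002 ± 0.008% (SD, n = 3) in uninduced and 0.988 ± 0.004% in induced libraries, and rose to 1.33 ± 0.01% with PAIR1 and 1.81 ± 0.01% with KIRA9. Because CPM is a share of all counts, more of these transcripts and less of the other RNA per cell cannot be told apart.

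ENSRNOG00000018294, member 2, was at 2994, 3105 and 3086 CPM in the uninduced libraries at 4 h and at 3010, 3059 and 2972 CPM in the induced ones. It stood at 6003, 5925 and 5988 CPM with PAIR1 and at 9530, 9386 and 9539 CPM with KIRA9. The vehicle groups overlapped, and the compound groups were separate from them and from each other. Replicates differed little beside these steps, with SDs of 41.2 CPM for PAIR1 and 85.8 CPM for KIRA9.

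The member with the largest ratio, number 1, had low counts. It was at 4.44, 4.70 and 3.86 CPM in uninduced and 3.82, 4.09 and 3.47 CPM in induced libraries, rose to 7.37, 7.80 and 6.89 CPM with PAIR1, and to 19.8, 22.9 and 17.5 CPM with KIRA9. Member 3 had similar steps at a higher level, from 46.4 ± 0.6 CPM (SD, n = 3) in uninduced and 44.1 ± 3.7 in induced cells to 84.6 ± 1.8 with PAIR1 and 144 ± 8 with KIRA9. Both members had separate vehicle, PAIR1 and KIRA9 libraries.

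The first question at 24 h was whether the members stood above the level of uninduced cells. Of the libraries at 24 h the rule had read the uninduced and induced means alone, and for the dropping step alone. The groups compared differ in doxycycline as well as in compound. A change between them can therefore come from induction, from the compound or from both. The contrasts with induced cells are given further below. Most of them did with KIRA9: 40 of the 61 were higher than in uninduced cells, 1 was lower and 20 were not called, against 12.6% of all tested IDs called higher and 10.8% called lower. With PAIR1 29 members were higher and 3 lower, against 13.7% and 14.3%. The dropping step bears on the lower counts: of the 10 IDs dropped on that ground alone, 6 were lower than uninduced cells with PAIR1 and 1 with KIRA9, and without the step the counts were 9 and 2. Leaving out 1 library at a time gave 1 to 3 lower with PAIR1 (1 without PAIR1 replicate 1 or 3 or uninduced replicate 2) and 0 to 1 with KIRA9. Calls were made at an adjusted p below 0.05 in edgeR's quasi-likelihood test. Among the 9388 IDs that reached 10 CPM with KIRA9 at 4 h, the shares called higher were 16.9% for KIRA9 and 17.7% for PAIR1. Both comparisons use the same 3 uninduced libraries, and the rule had set a higher minimum rise for KIRA9 than for PAIR1 at 4 h.

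At 24 h the changes were as follows. The median log2 change of the 61 members from uninduced cells at 24 h was 0.38 with KIRA9 (range -0.13 to 1.61) and 0.21 with PAIR1 (range -0.30 to 1.04), beside medians of -0.01 and -0.00 over all tested IDs. In CPM, 14 members were at least 1.5-fold above uninduced cells with KIRA9 and 12 with PAIR1. No share over all tested IDs is given for these counts or for those across time that follow. The members were chosen for a high KIRA9 level at 4 h, which favours a lower level at 24 h. The times are therefore set side by side, and nothing is read from their difference. The KIRA9 mean was lower at 24 h than at 4 h in 53 of the 61 members and under 0.5 of it in 9. The median ratio of the KIRA9 means, 24 h over 4 h, was 0.661, and that of the uninduced means was 0.928.

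The calls at 24 h were also counted along the order of the 4 h ratio. Of members 1 to 20, 16 were called higher with KIRA9 than in uninduced cells at 24 h, of members 21 to 40, 13, and of members 41 to 61, 11. For PAIR1 these counts were 11, 7 and 11. Across the 61 members, the log2 KIRA9 ratio at 4 h and the log2 ratio of KIRA9 to uninduced means at 24 h correlated with r = 0.20 (Spearman's rho = 0.20), a description over IDs that share the same libraries at each time and whose 4 h ratio was cut at 1.4 by the rule. Member 5, for example, was at 24.1 CPM with KIRA9 at 4 h, 2.76 times the vehicle level, and at 24 h stood at 12.02, 11.51 and 12.61 CPM against 14.1, 11.5 and 11.8 CPM in uninduced cells, overlapping them.

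**Figure D2:**
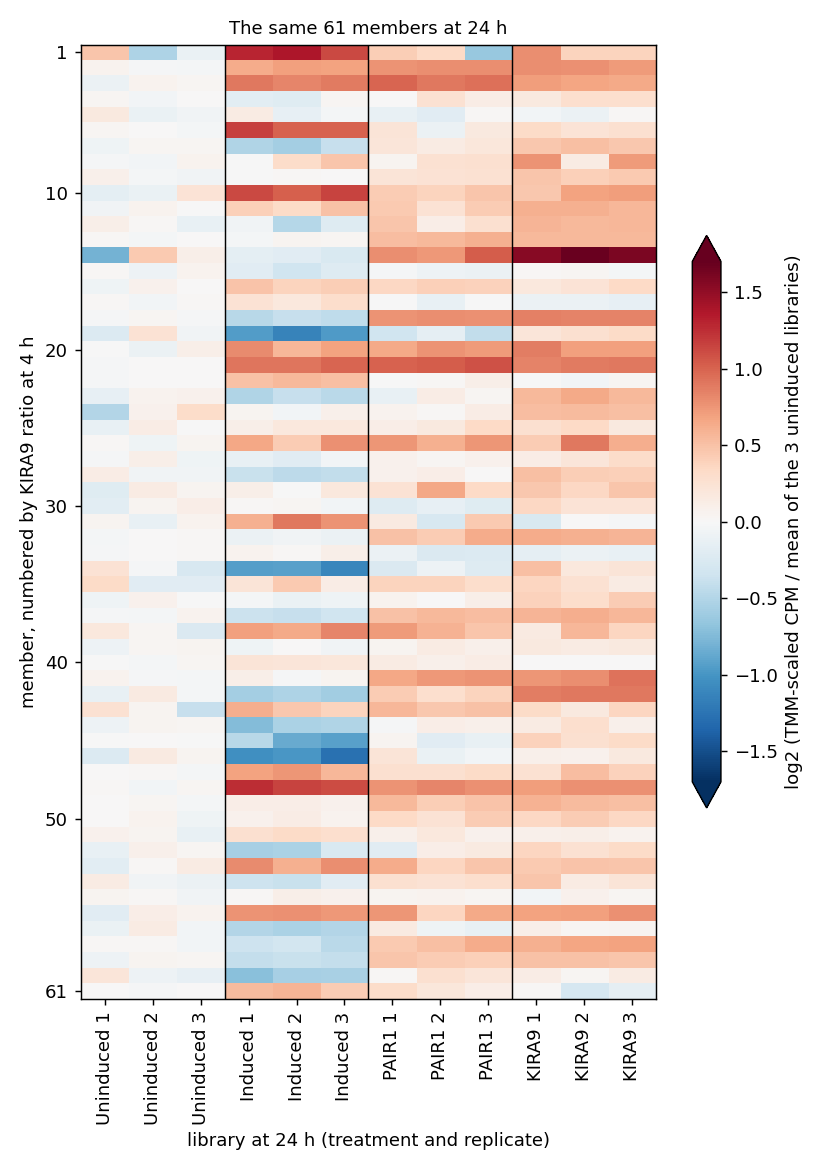
The same members in the same order, now in the 12 libraries at 24 h, with colour as log2 of the TMM-scaled CPM over the mean of the 3 uninduced libraries. The KIRA9 and PAIR1 columns are mostly red, while the induced columns hold both red and blue rows.

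Relative to induced cells at 24 h the members went both ways. With KIRA9 35 were higher and 16 lower, against 32.3% and 30.6% of all tested IDs (39.8% and 34.7% of the 9388), and with PAIR1 31 were higher and 13 lower, against 30% and 24.9% (37.7% and 29.5%). With the time characteristic for the induced libraries in place of the titles, the lower counts among the same members were 3 and 7. That run sets the compounds at 24 h against the induced libraries titled 4 h, which the rule had read. The median log2 change was 0.30 with KIRA9 and 0.13 with PAIR1. The dropping step removed IDs that were low in induced cells, so the set had been trimmed on one side of these contrasts: all 10 IDs dropped on that ground alone were higher than in induced cells with either compound. With scaling to library totals the medians were 0.16 and 0.02, while the median over all tested IDs moved to -0.16 and -0.11.

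The induced to uninduced ratio at 24 h also varied among the members, as it did over all tested IDs. In CPM it ran from 0.515 to 2.64, with a median of 1.13, beside 1.10 over all tested IDs. Its quartiles in CPM were 0.854 and 1.57, beside 0.829 and 1.37. After TMM scaling it ran from 0.469 to 2.41 with a median of 1.03, beside 1.00. All 3 induced libraries lay above all 3 uninduced ones in 33 members and below them in 16 (41.8% and 25.7% of all tested IDs), and after TMM scaling in 24 and 19 (31.6% and 32.7%). The rule used this contrast, so it is a description. With TMM scaling the highest of the 4 group means at 24 h was that of KIRA9 in 35 members, of induced cells in 17, of PAIR1 in 8 and of uninduced cells in 1. Over all tested IDs the shares were 21.9, 41.1, 11.5 and 25.6%. In CPM the members' counts were 30, 26, 4 and 1.

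**Figure D3:**
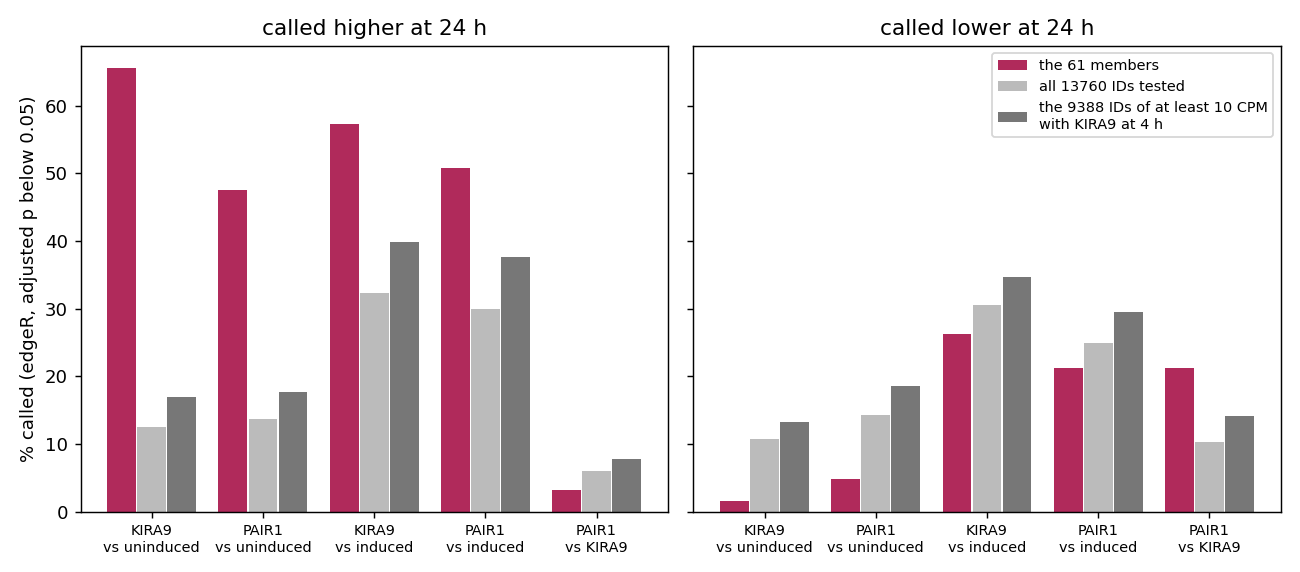
Bars give the percentage of IDs called higher (left) or lower (right) in each of the 5 contrasts at 24 h, for the 61 members, for all 13760 IDs tested and for the 9388 IDs of at least 10 CPM with KIRA9 at 4 h. The members' bar reaches 65.6% for KIRA9 above uninduced cells, where the bars of the other sets are at 12.6% and 16.9%.

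Single members followed different courses from 4 h to 24 h. ENSRNOG00000018294 was at 2009, 1889 and 1858.8 CPM in uninduced cells at 24 h, and at 3308, 3372 and 3368 CPM with PAIR1 and 3310, 3272 and 3161 CPM with KIRA9. Both compound groups lay above the uninduced libraries, by log2 changes of 0.78 ± 0.02 (SE, adjusted p = 1.3e-17) and 0.77 ± 0.02 (adjusted p = 1.3e-16). The induced vehicle libraries were at 3291, 3393 and 3370 CPM. Against them the compounds were called higher by 0.11 ± 0.02 (PAIR1, adjusted p = 0.00026) and 0.10 ± 0.02 (KIRA9, adjusted p = 0.00073). With scaling to library totals these were -0.0011 and -0.045 and not called. The fit without the 6 libraries that stand apart leaves only replicate 3 of the induced group at 24 h. Its calls against induced cells are therefore not given. The step between PAIR1 and KIRA9 seen at 4 h was not detected at 24 h, with a log2 difference of 0.01 and a 95% interval of -0.03 to 0.06 (adjusted p = 0.79).

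ENSRNOG00000046005, member 14, had the largest KIRA9 change from uninduced cells at 24 h of the 61, and was 1 of 6 members whose log2 ratio of KIRA9 to uninduced means was larger at 24 h than at 4 h. At 4 h it stood at 264, 281 and 282 CPM in uninduced, 269, 289 and 266 in induced, 324.5, 332.9 and 349.5 in PAIR1 and 571, 603 and 604 in KIRA9 libraries. At 24 h it was at 370, 361 and 346 CPM in induced cells, 665, 638 and 779 with PAIR1 and 1095, 1194 and 1129 with KIRA9, and these 3 groups did not overlap. The uninduced libraries were scattered, at 217, 510 and 399 CPM, the widest relative spread of any group of any member, with a CV of 39.3%.

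The log2 change of ENSRNOG00000046005 from induced cells was 1.81 ± 0.17 (SE) with KIRA9 (adjusted p = 2.5e-09) and 1.06 ± 0.17 with PAIR1 (adjusted p = 8.9e-06). From uninduced cells it was 1.61 ± 0.17 with KIRA9 (adjusted p = 1.2e-07) and 0.86 ± 0.16 with PAIR1 (adjusted p = 0.00028). Without uninduced replicate 1, the lowest library, these last changes were 1.33 and 0.58, and without replicate 2, the highest and one of the 6 libraries that stand apart, they were 1.89 and 1.146. All 4 remained called.

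Member 18 kept its rise with both compounds and was lower in induced cells. It was at 866, 889 and 878 CPM in uninduced and 826, 842 and 845 CPM in induced libraries at 4 h, 1239 ± 40 CPM with PAIR1 and 1665 ± 38 CPM with KIRA9 (SD, n = 3). At 24 h it was at 546 ± 9 CPM in uninduced, 445 ± 11 in induced, 950 ± 8 in PAIR1 and 975 ± 10 in KIRA9 cells. The compounds were above uninduced cells by log2 changes of 0.77 (PAIR1) and 0.84 (KIRA9) and above induced cells by 1.205 and 1.27, each with an SE of 0.03. Both compounds were also above uninduced cells in member 13, by 0.56 with PAIR1 and 0.55 with KIRA9, and in member 41, by 0.72 and 0.82. In CPM the induced mean of member 13 at 24 h lay above the uninduced one, at 1746 against 1575. After TMM scaling its induced libraries, at 1559, 1650 and 1632, overlapped the uninduced ones, at 1623, 1565 and 1607.

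ENSRNOG00000006789, member 6, was one of those that fell below the induced level. At 4 h it was at 28.1, 27.8 and 24.5 CPM in uninduced, 31.3, 28.5 and 29.4 in induced, 43.9, 44.7 and 44.9 in PAIR1 and 77.6, 81.1 and 78.3 in KIRA9 libraries. At 24 h the induced libraries were at 80.5, 71.7 and 72.1 CPM, while PAIR1 was at 38.7, 31.1 and 37.5 and KIRA9 at 41.03, 38.2 and 39.3. So at 4 h the KIRA9 libraries were the high ones, and at 24 h the induced vehicle libraries were. KIRA9 lay wholly below induced cells at 24 h in 20 of the 61 members, against 44.6% of all tested IDs (in 18, against 33.9%, after TMM scaling).

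The log2 change of ENSRNOG00000006789 from induced cells at 24 h was -0.96 ± 0.07 (SE) with PAIR1 (adjusted p = 2.5e-11) and -0.78 ± 0.07 with KIRA9 (adjusted p = 4.9e-10). With the time characteristic in place of the titles both turned, to 0.24 and 0.42. Against the uninduced libraries, at 33.8, 32.6 and 31.6 CPM, KIRA9 was still higher by 0.28 ± 0.07 (adjusted p = 0.0033), and PAIR1 was not called, at 0.10 ± 0.07 (adjusted p = 0.28). Without PAIR1 replicate 2 the PAIR1 change was 0.19 and was called (adjusted p = 0.025). Member 1 was also below induced cells at 24 h, by -1.18 with PAIR1 (adjusted p = 0.00010) and -0.75 with KIRA9 (adjusted p = 0.0044). The latter was -0.61 without the 6 libraries that stand apart, a fit that leaves only replicate 3 of the induced group at 24 h. Member 1 was low at 24 h, at 2.78, 2.64 and 1.33 CPM with PAIR1 and 3.53, 2.64 and 2.65 CPM with KIRA9. Its induced libraries were at 5.53, 5.83 and 4.90 CPM. Leaving out 1 library at a time gave -1.35 to -0.89 with PAIR1 and -0.89 to -0.67 with KIRA9.

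ENSRNOG00000010833, member 33, was the only member called lower than in uninduced cells with KIRA9 at 24 h, and it was chosen for print after its values were seen, as were the other 3 IDs. It had been at 116, 120 and 116 CPM in uninduced and 185, 197 and 198 CPM in KIRA9 libraries at 4 h, with PAIR1 at 137.1, 140.5 and 135.5 CPM. At 24 h the uninduced libraries were at 120, 122 and 122 CPM, PAIR1 at 115, 105 and 105 and KIRA9 at 109, 112 and 111. Both compounds lay below the uninduced libraries, PAIR1 and KIRA9 overlapped each other, and the changes were small: -0.12 ± 0.04 (SE, adjusted p = 0.012) with KIRA9 and -0.19 ± 0.04 (adjusted p = 0.00017) with PAIR1. The KIRA9 call was lost without KIRA9 replicate 1 (adjusted p = 0.053) and when the 6 compared libraries were fitted alone (adjusted p = 0.062).

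**Figure D4:**
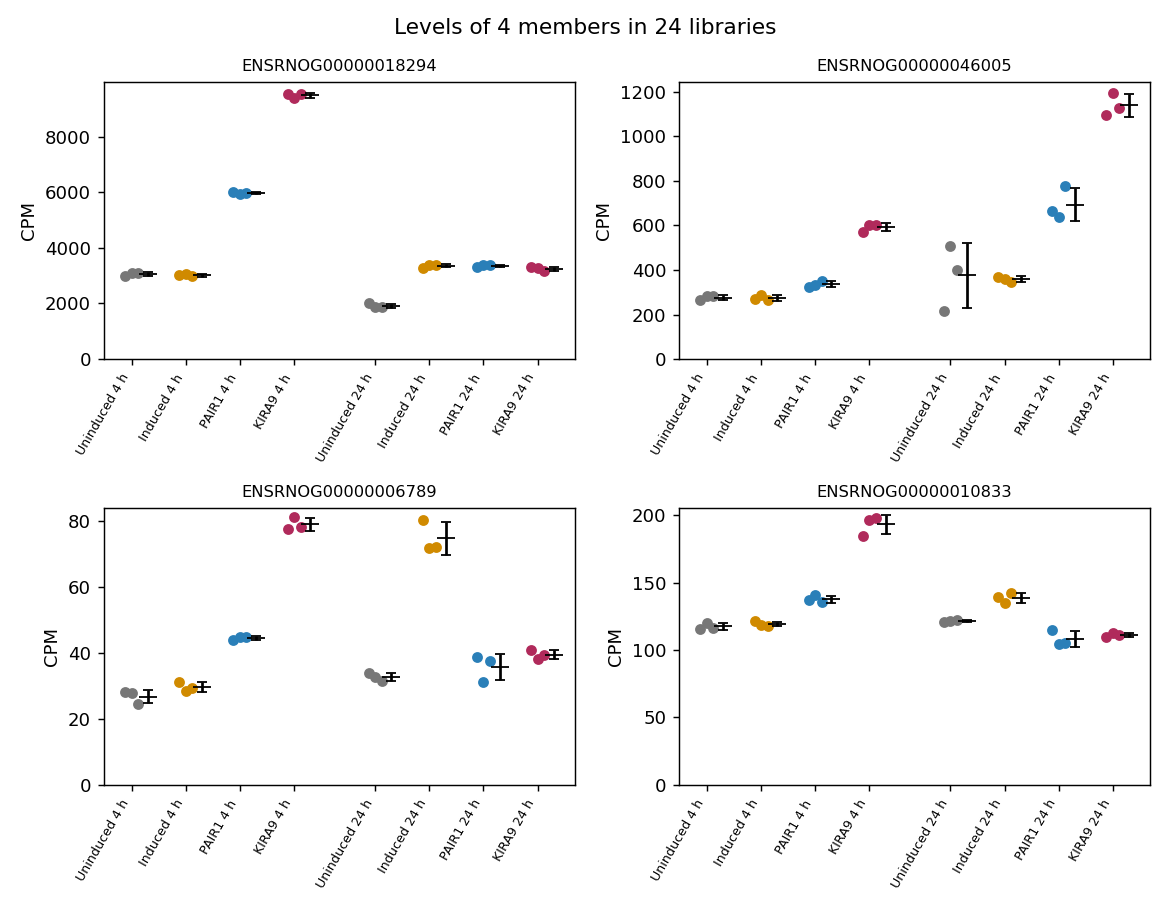
Points are the CPM of the 3 libraries of each group at 4 h and 24 h for the 4 printed IDs, with the mean and SD in black, on axes that start at 0. ENSRNOG00000046005 is highest with KIRA9 at 24 h (1095 to 1194 CPM), and ENSRNOG00000006789 is at 71.7 to 80.5 CPM in induced cells at 24 h, near its KIRA9 level at 4 h.

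The direct comparison of the compounds at 24 h used no library that the rule had read, though the dropping step removed IDs with a difference here. The rule did not compare the compounds with each other, but its minimum rise at 4 h was higher for KIRA9 than for PAIR1. Only KIRA9 had to have separate libraries. At 4 h KIRA9 lay wholly above PAIR1 in 59 members. The set thus leans towards KIRA9, and the counts below do not rank the compounds in general. PAIR1 was lower than KIRA9 in 13 of the 61 members and higher in 2, against 10.3% and 6% of all tested IDs (14.2% and 7.73% of the 9388 IDs of at least 10 CPM with KIRA9 at 4 h). Of the 10 IDs dropped on that ground alone 8 were lower with PAIR1, and without the step the count was 21. The median log2 difference was -0.07, beside 0.01 over all tested IDs. The difference was not called in 46 members, where it ran from -0.44 to 0.34. In 40 of these the 95% interval lay within 0.5 on either side of 0, so a larger difference lay outside it. The doses are not given, so the comparison is of the treatments as applied.

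The members with lower PAIR1 levels at 24 h were led by ENSRNOG00000046005, at -0.75 ± 0.16 (SE, adjusted p = 0.0021). Member 19 differed by -0.58 ± 0.10 (adjusted p = 0.00021), member 23 by -0.57 ± 0.06 (adjusted p = 3.0e-07) and member 42 by -0.52 ± 0.05 (adjusted p = 5.1e-08). Member 42 was at 111, 99.7 and 107 CPM with PAIR1 and at 147, 149 and 149 CPM with KIRA9, against 74.3, 89.5 and 78.3 CPM in uninduced cells. It was above uninduced cells by log2 changes of 0.37 and 0.89.

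Member 23 was at 59.8, 71.1 and 66.7 CPM with PAIR1 at 24 h, within the range of the uninduced libraries (58.8, 67.0 and 66.9 CPM) but for 1 library, and at 94.4, 99.6 and 93.5 CPM with KIRA9. Its change from uninduced cells was 0.59 ± 0.06 with KIRA9 (adjusted p = 1.5e-07). Member 30 was at 25.8, 27.3 and 26.1 CPM with PAIR1 and 37.8, 34.3 and 34.5 CPM with KIRA9, a difference of -0.46 ± 0.07 (adjusted p = 2.4e-05). Members 19 and 30 were the other 2 called lower than in uninduced cells with PAIR1 (adjusted p = 0.031 and 0.049), and neither was called without the 6 libraries that stand apart.

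The 2 members that were higher with PAIR1 at 24 h were numbers 3 and 21. Member 3 was at 58.6, 54.9 and 56.7 CPM with PAIR1 and 47.5, 45.7 and 45.1 CPM with KIRA9, a log2 difference of 0.27 ± 0.06 (adjusted p = 0.0012). At 4 h its order had been the reverse. Member 21 was at 327, 332 and 346 CPM with PAIR1 and 287, 294 and 298 CPM with KIRA9, a difference of 0.16 ± 0.04 (adjusted p = 0.0035). The induced vehicle libraries of these members were at 59.7, 56.6 and 58.6 CPM and at 334, 331 and 348 CPM, overlapping PAIR1 in both on that scale. In the edgeR test against induced cells PAIR1 was not called in member 3 (log2 change 0.07, adjusted p = 0.30). It was called higher in member 21, by 0.10 ± 0.04 (SE, adjusted p = 0.030). After TMM scaling the PAIR1 libraries of member 21, at 326, 331 and 345, lay above the induced ones, at 307, 307 and 322.

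Across the members, the log2 ratio of PAIR1 to KIRA9 means at 24 h correlated with the log2 induction ratio at 24 h, with r = 0.45 and rho = 0.50. These ratios share no library. Over the 9388 IDs of at least 10 CPM with KIRA9 at 4 h the same correlation was r = 0.69 (rho = 0.66), so it is not a property of the members. The 10 IDs dropped solely for their fall with induction had a median log2 difference of -0.46.

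**Figure D5:**
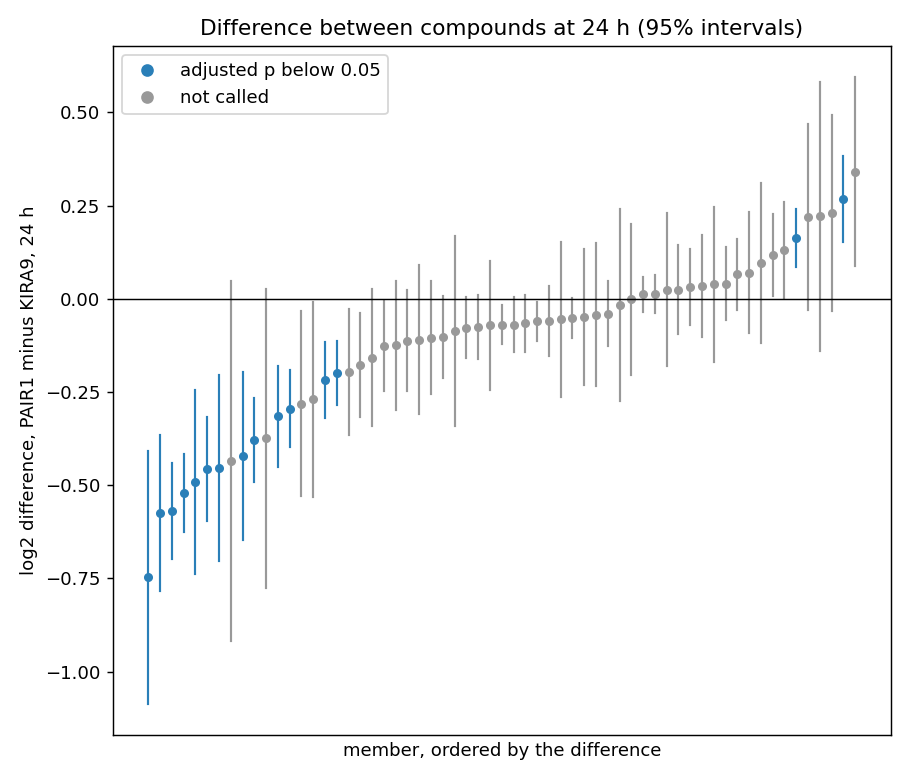
Each point is 1 member, with the log2 difference of PAIR1 minus KIRA9 at 24 h and its 95% interval from edgeR, ordered by size. Blue marks the 13 members called lower and the 2 called higher with PAIR1, and the differences run from -0.75 to 0.34.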

How the data were processed

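Poly(A)-enriched RNA of 24 samples was sequenced with a NEBNext Ultra II library kit, per the labels' protocols. The authors deposited 1 table of raw counts by Ensembl ID, not normalized. Per the submitters' processing notes, HISAT2 and HTSeq were used, with no version named. Genome build, annotation and strand setting: not given in the sources used here. Overlapping genes and close copies may therefore share reads. Nothing in the labels says whether replicates came from separate cultures, so p-values measure the spread between these samples, which may be technical.

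CPM was each count over its column total. The test was edgeR 4.0.16 (R 4.3.3) with filterByExpr at a minimum count of 10, TMM scaling (factors 0.978 to 1.09), 1 quasi-likelihood model over all 24 libraries with a mean for each of 8 groups, and Benjamini-Hochberg adjustment over 13760 IDs for each of 5 contrasts. Intervals and the limit for a count of 0 cover counting error or the fitted spread, and PCR copies are not independent molecules. In 1 simulation of KIRA9 against uninduced cells at 24 h (13760 IDs, 200 changed), 72% of changes of 0.5 and 87% of changes of 1 on the log2 scale were recovered. Of the calls, 5.92% were false. Changed IDs were drawn from those of at least 1 CPM, all others were equal in every group, and libraries varied independently. The shares need not carry over to the real libraries, where more IDs were called.

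The members and lists were chosen with earlier results of these data known. The written rule for naming genes and the gene lists and promoter motifs need symbols, and 0 of 26689 IDs matched, so none was used. Members named by number were taken by the size of their 4 h ratio, their 24 h changes or their difference between compounds, after their values were seen. Alternatives were DESeq2 1.42.0, other scalings, filters, blocks, libraries, thresholds and member rules.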

Additional observations from a re-analysis of the deposited data

Results flagged for a closer look

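In 20 of the 61 members all 3 KIRA9 libraries lay above all 3 induced vehicle libraries at 4 h and below all 3 at 24 h, so that the same contrast went opposite ways at the 2 times. The rule fixed the direction at 4 h, and the difference between the times was not tested. At 24 h this order was found in 44.6% of all tested IDs in CPM, and after TMM scaling in 18 of the 61 members and 33.9% of all tested IDs. On both scales the members showed it less often than all tested IDs, so it is not a trait of the members. ENSRNOG00000006789 is an example, with 71.7 to 80.5 CPM in induced and 38.2 to 41.03 CPM in KIRA9 libraries at 24 h.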

How the results depend on the processing

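Counts of members called higher stayed within 1.5 times the reported value in all 5 contrasts under every alternative run. The count called lower moved for KIRA9 against uninduced cells (reported 1) to 0 with the compared libraries alone or an adjusted p below 0.01 and to 2 without the dropping step. For PAIR1 against uninduced cells (reported 3) it moved to 1 in the first 2 cases and to 9 without the dropping step, and for PAIR1 against KIRA9 (reported 13) to 21 without that step. With the time characteristic for the induced vehicle libraries, 3 and 7 of the members chosen by the titles were called lower than in induced cells with KIRA9 and PAIR1. ENSRNOG00000006789 reversed to 0.42 and 0.24, and the rule chose 17 IDs. Limits of 1.5 for KIRA9 and 25% above vehicle for PAIR1 chose 30 IDs, and leaving out single 4 h libraries chose 56 to 65. With 1 library left out at 24 h, the lower counts ran from 0 to 1 for KIRA9 and from 1 to 3 for PAIR1 against uninduced cells, and the difference between compounds in ENSRNOG00000018294 from -0.0058 to 0.0234. With scaling to library totals that ID's changes from induced cells reversed to -0.045 (KIRA9) and -0.0011 (PAIR1). The cause of these shifts was not tested.

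The fit without the 6 libraries that stand apart was chosen after seeing the data. In it 40 members were called higher with KIRA9 and 30 with PAIR1 than in uninduced cells. PAIR1 against KIRA9 gave 2 higher and 11 lower. At 24 h the PAIR1 and uninduced groups lost a library each, and only replicate 3 was left of the induced group. No counts against induced cells are therefore given. Same-numbered replicates correlated over 0.1 in 5 of 18 pairs of 24 h groups (-0.22 to 0.25). These values cannot tell whether same-numbered samples shared a culture or a day, which the labels do not say. With a replicate block 42 members were higher with KIRA9 and 30 with PAIR1 than uninduced cells, and 14 were lower with PAIR1 than with KIRA9.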
